A study of Mus musculus with 12 samples.

Results

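Peaks of open chromatin were examined at 10 mouse genes of epidermal growth factor (EGF) and fibroblast growth factor (FGF) signalling, taken from the 21627 protein-coding genes of the annotation. The members are the receptors Egfr, Erbb2, Erbb3, Erbb4 and Fgfr2, the EGF receptor ligands Areg, Ereg and Hbegf, and the feedback inhibitors Spry2 and Spry4. They were listed by name and not by a threshold on measured values, but earlier results of these data were known when they were chosen. Every peak that overlapped the gene or the 10 kb on either side of it, here called its locus, was counted. The 10 loci held 73 of the 83727 regions obtained by merging the peaks of all libraries.

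The material was alveolar type II (AT2) cells, the surfactant-making epithelial cells of the lung, from BALB/c mice aged 6 to 8 weeks. The animals had received labelled cells of 4T1, a mouse mammary carcinoma line, or of CT26, a mouse colon carcinoma line, into the tail vein, and lungs were taken on day 7. For each line, 3 libraries were made from AT2 cells of the metastatic niche and 3 from distal lung, giving 12 libraries in the 4 groups 4T1 distal, 4T1 niche, CT26 distal and CT26 niche, with 5 lungs pooled and 50000 sorted cells per library. All 4 groups came from injected mice, so that distal lung is the only control, and no library analysed here is from lung without tumour cells. Open DNA of isolated nuclei was tagged by the transposase Tn5 (Omni-ATAC-seq), and each library is represented by its own broad peaks.

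EGF receptor family proteins sit in the cell membrane and dimerise when a ligand binds, which starts the RAS and MAP kinase cascade. Amphiregulin (Areg), epiregulin (Ereg) and heparin-binding EGF-like growth factor (Hbegf) are made as membrane proteins and released by proteases. Fgfr2 encodes the receptor for the FGF ligands of the lung mesenchyme and is required for the branching and maintenance of lung epithelium. The Sprouty proteins are induced by the same cascade and dampen it. AT2 cells act as progenitors of the alveolus, and signals of both families promote their growth.

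The libraries differed in the length of their peak lists, which bears on every value given here. The lists covered 42.0 to 45.7 Mb in 4T1 distal, 49.1 to 51.9 Mb in 4T1 niche, 31.4 to 34.4 Mb in CT26 distal and 38.2 to 44.7 Mb in CT26 niche libraries. Within CT26 niche, replicate 1 stood above the other libraries of its group (44.7 Mb against 38.2 and 38.4 Mb). The files hold no read counts, so the depth is unknown, and more reads and more open chromatin cannot be told apart in a longer list. All 10 AT2 marker loci, among them Sftpc, Sftpb, Lamp3 and Nkx2-1, had a peak in each of the 12 libraries. So did all 5 marker loci of alveolar type I (AT1) cells, all 4 of intestinal epithelium and 4 of 5 of airway. Such a peak therefore does not tell these cell types apart. Of the leukocyte markers, Adgre1 and Marco were without a peak in every library, while 3 of 10 leukocyte loci (Cd68, Csf1r and Nkg7) had one in all 12. The summed length over the 5 endothelial loci was 7.45 to 7.91 kb in 4T1 distal, 10.4 to 13.7 kb in 4T1 niche, 5.40 to 6.24 kb in CT26 distal and 5.85 to 8.64 kb in CT26 niche libraries. For the 5 fibroblast loci it was 4.78 to 7.22, 7.27 to 8.53, 3.59 to 4.89 and 5.61 to 9.68 kb in the same order. The 5 AT1 loci had 17.54 to 18.5, 19.09 to 21.49, 13.01 to 14.39 and 16.2 to 19.75 kb. The 10 AT2 loci had 47.17 to 59.8, 56.14 to 64.88, 36.19 to 40.13 and 41.46 to 48.81 kb. These sums are unscaled. After scaling to the same total covered length, Pecam1 alone of the endothelial loci and no fibroblast locus passed between niche and distal over both models (limma). In the same comparison Pdpn alone of the AT1 loci passed as higher in the niche, and Sftpb alone of the AT2 loci passed as lower. Pdpn also passed as higher in the niche in CT26. The part of these marker loci in the results on the growth factor genes was not tested.

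The 250 bases upstream of the annotated start were open in different ways at the members. RefSeq promoter sequences (GRCm38.p6) were matched for 6 of the 10 genes. Areg and Egfr had this window under peaks over its whole length in all 12 libraries, as did 33.9% of the windows of 21044 protein-coding genes. At Erbb2 it was covered over at least 171 bases in every library and whole in 8. The Spry2 window was whole only in replicates 1 and 2 of 4T1 niche, and the other 10 libraries covered 20 to 83 bases of it. At Erbb4 it was whole in 10 libraries and untouched in 4T1 niche replicate 3 and CT26 distal replicate 1. The Fgfr2 window held at most 61 bases under peaks and none in 9 libraries. The 4 sequences below are those of Areg, Egfr, Erbb2 and Spry2, on the gene strand. A match to one of 6 searched motifs is in capitals, and the windows of Fgfr2 and Erbb4 are not printed.
Areg, chr5:91139349-91139598: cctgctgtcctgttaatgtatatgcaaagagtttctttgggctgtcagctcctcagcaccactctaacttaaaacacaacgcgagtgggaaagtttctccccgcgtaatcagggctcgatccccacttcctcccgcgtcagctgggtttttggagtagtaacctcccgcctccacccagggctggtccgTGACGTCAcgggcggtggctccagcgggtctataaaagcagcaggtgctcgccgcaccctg
Egfr, chr11:16751953-16752202: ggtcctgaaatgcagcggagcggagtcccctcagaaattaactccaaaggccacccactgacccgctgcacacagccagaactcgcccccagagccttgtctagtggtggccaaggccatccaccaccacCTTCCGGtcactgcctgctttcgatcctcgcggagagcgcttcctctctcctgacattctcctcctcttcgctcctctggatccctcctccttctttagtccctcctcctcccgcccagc
Erbb2, chr11:98412234-98412483: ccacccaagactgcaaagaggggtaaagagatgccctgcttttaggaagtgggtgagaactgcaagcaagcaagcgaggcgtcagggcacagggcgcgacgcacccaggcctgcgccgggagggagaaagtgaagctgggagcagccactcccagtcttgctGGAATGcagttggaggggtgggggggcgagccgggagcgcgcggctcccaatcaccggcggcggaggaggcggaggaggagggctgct
Spry2, chr14:105896820-105897069: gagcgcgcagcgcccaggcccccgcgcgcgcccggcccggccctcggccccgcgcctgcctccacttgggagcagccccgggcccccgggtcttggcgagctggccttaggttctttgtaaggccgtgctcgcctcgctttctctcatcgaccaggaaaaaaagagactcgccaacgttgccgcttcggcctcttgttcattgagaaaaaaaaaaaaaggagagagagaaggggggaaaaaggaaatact

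The motifs searched on both strands were AP-1 (TGANTCA), the cAMP response element (TGACGTCA), ETS (CCGGAAG), TEAD (GGAATG), NKX2-1 (CACTTGA) and C/EBP (TTGCNNAA), none of which contains another. ETS factors include targets of the MAP kinase cascade, and NKX2-1 is a lineage factor of lung epithelium. The Areg window held the whole palindromic cAMP response element, 61 to 54 bases before the start, which 1.55% of 32851 RefSeq promoter windows of this length also hold. An ETS match lay on the other strand of the Egfr window, 120 to 114 bases before the start (6.91% of promoters). A TEAD match lay 88 to 83 bases before the Erbb2 start (12.64% of promoters). No searched letters were found in the windows of Spry2, Fgfr2 and Erbb4. Guanine and cytosine made up 66.0% of the Erbb2 window, 62.4% of that of Spry2, 60.8% of that of Egfr, 57.2% of that of Areg, 54.0% of that of Erbb4 and 44.0% of that of Fgfr2, beside a median of 55.6% over protein-coding windows.

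The loci differed widely from each other in how much of their length was open. Per length of locus, peaks covered on average 18.85% at Spry2, 12.21% at Hbegf, 11.33% at Erbb2, 10.48% at Fgfr2, 9.73% at Erbb3, 7.65% at Areg, 6.54% at Spry4, 4.91% at Egfr, 2.15% at Ereg and 0.29% at Erbb4. By this share the 1096.7 kb Erbb4 locus was the least open. Its mean length under peaks (3.23 kb) was above those of Ereg (0.84 kb), Areg (2.21 kb) and Spry4 (2.29 kb). Neighbours in the order of shares overlapped over the 12 libraries from Spry2 (11.52 to 30.88%) to Egfr (3.61 to 6.96%). Ereg (1.06 to 3.27%) and Erbb4 (0.18 to 0.39%) each lay below all values of the gene before it. Spry2 varied most between libraries, with a coefficient of variation of 32.3% of its length under peaks, followed by Areg with 30.0% and Ereg with 28.3%. Erbb3 varied least, with 3.8%, and Spry4 had 9.8%.

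**Figure D1:**
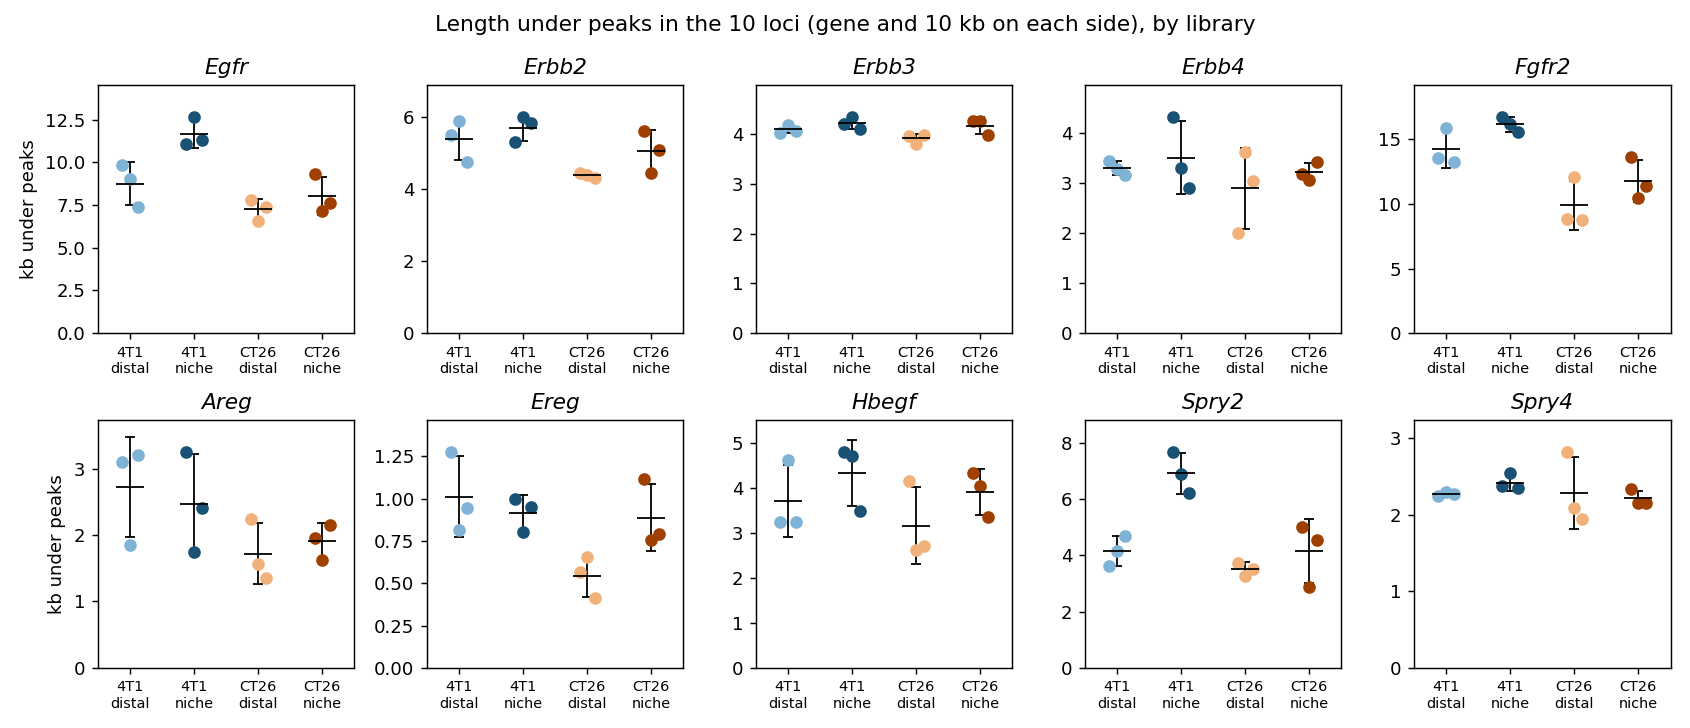
Length under peaks in each locus (kb, gene and 10 kb on each side; vertical axes start at 0 and differ between genes) for each of the 12 libraries; points are libraries, left to right replicates 1 to 3, with the group mean as a dash and the SD as bars. Spry2 lies at 6.22 to 7.68 kb in 4T1 niche and at 2.87 to 5.03 kb in the other groups, and Erbb3 stays between 3.81 and 4.34 kb in all 12 libraries.

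Egfr, a receptor of all 3 ligands described here, had 15 regions in its 181.7 kb locus, all of them in the gene. Its length under peaks was 9.85, 9.04 and 7.36 kb in 4T1 distal, 11.1, 12.6 and 11.3 kb in 4T1 niche, 7.80, 6.56 and 7.37 kb in CT26 distal and 9.30, 7.15 and 7.60 kb in CT26 niche libraries. All 3 niche libraries lay above all 3 distal ones in 4T1, and the groups overlapped in CT26. After scaling each library to the same total covered length, the 4T1 niche change of Egfr was 0.21 ± 0.08 (SE, log2, limma; 95% interval 0.03 to 0.39), which did not pass (adjusted p = 0.318). In bulk libraries a change in the share of cells with an open site and a change in how open it is cannot be told apart. The CT26 value was -0.13 ± 0.08 (limma, adjusted p = 0.391). The region at the start, chr11:16751127-16753140, ranked high on average (mean percentile 93.0 by -log10 p) and had nearly constant width, 1655 to 2002 bp. The strongest Egfr region lay in the gene body, 48570 bp from the start, at chr11:16800241-16801306 (mean percentile 95.3).

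Regions that some libraries lacked lay within the gene. chr11:16830583-16831048, 78612 bp into the gene, was held by all 3 CT26 niche and no CT26 distal library. Its widths were 348, 205 and 416 bp in 4T1 distal, 390, 342 and 448 bp in 4T1 niche and 334, 215 and 343 bp in CT26 niche libraries, so in 4T1 it was present at both sites. Of all merged regions, 1.56% were held by all CT26 niche and no CT26 distal library, and 0.68% were absent from CT26 distal alone as here. The deposited -log10 q of its peaks was 3.51 to 9.14, and with a -log10 q of at least 5 required the pattern was lost. A stretch 32318 bp into the gene, chr11:16783970-16785071, was held by 9 libraries, 3 of 3 in each niche group, 2 in 4T1 distal and 1 in CT26 distal. The region 38652 bp from the start, chr11:16790231-16791480, was held by all 3 4T1 niche libraries (311, 1212 and 1143 bp), by 4T1 distal replicate 2 (266 bp) and by CT26 niche replicate 1 (1056 bp). Near the far end of the gene, chr11:16900737-16902700 was held by all libraries and varied in width, with 1869, 729 and 639 bp in 4T1 distal and 1688, 1917 and 1465 bp in 4T1 niche libraries, which overlap through distal replicate 1.

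**Figure D2:**
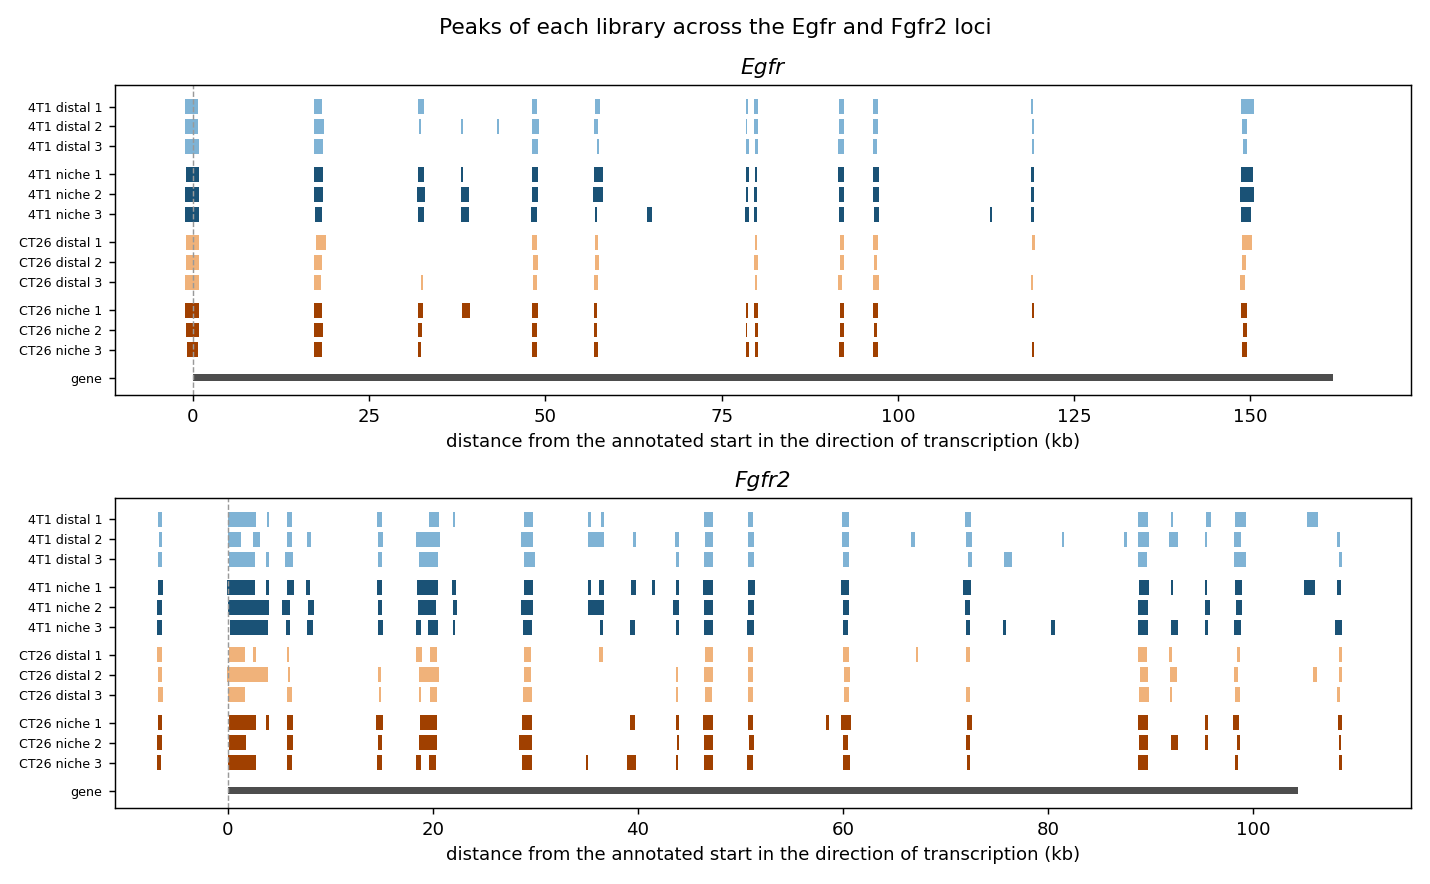
Peaks of each library at Egfr and Fgfr2 (one row per library; horizontal axis, kb from the annotated start in the direction of transcription; the grey bar is the gene). The regions at the starts and the strongest regions inside the genes are shared by the 12 libraries, while some of the other regions appear in only part of the libraries. The Egfr region 78612 bp from the start is missing from the 3 CT26 distal rows.

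Fgfr2 had the most regions, 29 in 124.4 kb, of which 10 were held by all 12 libraries and 7 by a single library. Its length under peaks was 13.6, 15.9 and 13.3 kb in 4T1 distal, 16.7, 16.2 and 15.6 kb in 4T1 niche, 8.80, 12.1 and 8.77 kb in CT26 distal and 13.6, 10.5 and 11.4 kb in CT26 niche libraries. Niche and distal libraries overlapped in both models. On the scaled values the niche change was -0.02 ± 0.13 in 4T1 and -0.02 ± 0.13 in CT26 (log2, limma; adjusted p = 0.963 and 0.957), with 95% intervals from -0.29 to 0.26 in both. The widest region, chr7:130262759-130266869, overlapped the gene start, lay mostly inside the gene and had 1641 to 4055 bp under peaks. This length was largest in 4T1 niche replicates 2 and 3 (4055 and 3773 bp) and in CT26 distal replicate 2 (3983 bp). The strongest region lay 29197 bp into the gene (chr7:130236816-130238406, mean percentile 88.0). A weak region 8012 bp into the gene, chr7:130258423-130259169, was held by all 3 4T1 niche libraries, by 4T1 distal replicate 2 and by no CT26 library. Toward the 3′ end, chr7:130167476-130168743 was narrower in every 4T1 niche library (670, 569 and 657 bp) than in every 4T1 distal library (1108, 739 and 1159 bp), a pattern of 3.17% of the 35222 regions that all 12 libraries held.

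Erbb2, the co-receptor without a ligand of its own, had the same 5 regions in all 12 libraries. Its length under peaks was 5.50, 5.87 and 4.75 kb in 4T1 distal, 5.29, 5.99 and 5.82 kb in 4T1 niche, 4.43, 4.39 and 4.31 kb in CT26 distal and 5.61, 4.45 and 5.09 kb in CT26 niche libraries. Every CT26 niche library was above every CT26 distal one, replicate 2 of the niche only slightly, and the scaled change was -0.08 ± 0.08 (log2, limma; adjusted p = 0.620). The region at the start, chr11:98412117-98413918, was 811 to 1764 bp wide. Of its flanking regions, chr11:98445353-98448814 overlaps the genes Grb7 and Mien1 and chr11:98438370-98439260 overlaps Mien1, so that 2 of its 5 regions may belong to neighbours.

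Erbb3, a receptor that signals through its partners because its own kinase is weak, had 3 regions in each of the 12 libraries. Its length under peaks was 4.03, 4.19 and 4.07 kb in 4T1 distal, 4.20, 4.34 and 4.10 kb in 4T1 niche, 3.95, 3.81 and 3.99 kb in CT26 distal and 4.26, 4.26 and 3.98 kb in CT26 niche libraries. Its strongest region, chr10:128565369-128566705 (mean percentile 99.7), overlaps the neighbouring gene Pa2g4. The region in the gene body, chr10:128583415-128584823, had a mean percentile of 95.7, and that over the upper end of the gene, chr10:128588800-128590661, spanned 1655 to 1830 bp. The strand of Erbb3, Ereg, Hbegf and Spry4 is not in the promoter table used, so their regions are placed by the lower or upper end of the gene.

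Erbb4, a neuregulin receptor and the longest of the genes, had 2 regions held by all 12 libraries. The one at the start, chr1:69105772-69108814, had 2500 to 3043 bp under peaks in 10 libraries. It had only 1494 bp in 4T1 niche replicate 3 and 1432 bp in CT26 distal replicate 1. The other common region lay 134842 bp into the gene (chr1:68973332-68974137, 526 to 806 bp). In addition, 2 weak regions at chr1:68766035-68766300 and chr1:68780144-68780807 were held by 4T1 niche replicates 1 and 3 alone. The scaled niche change was -0.11 ± 0.18 in 4T1 and -0.08 ± 0.18 in CT26 (log2, limma; adjusted p = 0.803 and 0.837).

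Among the ligands, Areg had a region at its start in all 12 libraries, chr5:91138996-91140020, which contains the cAMP response element printed above. Its widths were 952, 967 and 998 bp in 4T1 distal, 971, 994 and 912 bp in 4T1 niche, 910, 882 and 830 bp in CT26 distal and 938, 915 and 952 bp in CT26 niche libraries. All CT26 niche libraries were wider than all CT26 distal ones there by a few bp or more, as were 20.4% of the 35222 regions common to all libraries. A weak region just past the gene end, chr5:91148691-91150192, was held by 6 libraries of which 2 were 4T1 distal (1295 and 936 bp), 2 were 4T1 niche (1394 and 595 bp), 1 was CT26 distal (529 bp) and 1 was CT26 niche (232 bp). The other flanking region, chr5:91156579-91157666, was held by all 12 libraries and spanned 524 to 1014 bp. The whole locus held 3.11, 1.85 and 3.21 kb in 4T1 distal, 3.25, 1.75 and 2.41 kb in 4T1 niche, 2.24, 1.57 and 1.35 kb in CT26 distal and 1.95, 1.63 and 2.16 kb in CT26 niche libraries. The groups overlapped in both models, and the scaled 4T1 change was -0.29 ± 0.23 (log2, limma; 95% interval -0.78 to 0.21, adjusted p = 0.589).

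Ereg had a single region, chr5:91073955-91075263, over the lower end of the gene. It spanned 1276, 813 and 947 bp in 4T1 distal, 1000, 803 and 952 bp in 4T1 niche, 564, 654 and 412 bp in CT26 distal and 1114, 756 and 790 bp in CT26 niche libraries. In CT26 the niche libraries were all wider than the distal ones, and in 4T1 the sites overlapped. The scaled change was 0.25 ± 0.14 in CT26 (adjusted p = 0.341) and -0.21 ± 0.14 in 4T1 (adjusted p = 0.518), and the difference of both changes was 0.46 ± 0.20 (log2, limma; adjusted p = 0.538).

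Hbegf had 6 regions, 4 of them in all libraries, and the one over its upper end, chr18:36513861-36516235, was strong (mean percentile 91.9). A region outside the gene, chr18:36497839-36499261, was held by 8 libraries. It was present in 3 of 3 libraries of 4T1 niche (1423, 1293 and 220 bp) and of CT26 niche (1423, 1280 and 329 bp), in 4T1 distal replicate 2 (212 bp) and in CT26 distal replicate 1 (1182 bp). The locus as a whole had 3.23, 4.62 and 3.23 kb in 4T1 distal, 4.79, 4.70 and 3.48 kb in 4T1 niche, 4.14, 2.62 and 2.71 kb in CT26 distal and 4.32, 4.04 and 3.34 kb in CT26 niche libraries. The sites overlapped in both models, and the scaled changes were 0.02 ± 0.16 in 4T1 and 0.04 ± 0.16 in CT26 (log2, limma; adjusted p = 0.961 and 0.920).

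Spry2, whose product restrains receptor signalling to RAS, showed the largest niche value of the members in 4T1. Its length under peaks was 3.62, 4.16 and 4.70 kb in 4T1 distal, 7.68, 6.90 and 6.22 kb in 4T1 niche, 3.74, 3.28 and 3.53 kb in CT26 distal and 5.03, 2.87 and 4.55 kb in CT26 niche libraries. The 4T1 niche libraries were above the other 9 libraries, and in CT26 the sites overlapped. On the scaled values the 4T1 change was 0.48 ± 0.15 (log2, limma; 95% interval 0.16 to 0.80), with an adjusted p of 0.200, so it did not pass over all loci. The CT26 change was -0.07 ± 0.15 (limma, adjusted p = 0.822), and the difference between the models, -0.55 ± 0.21, did not pass (adjusted p = 0.432). With all peak lists cut to one length, the 42067 peaks of the shortest list, the 4T1 change was 0.36 (limma, adjusted p = 0.850).

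The extra length lay at the Spry2 start. The region chr14:105895016-105900291 had 1504, 1621 and 2421 bp under peaks in 4T1 distal, 5209, 4217 and 3553 bp in 4T1 niche, 2352, 1266 and 2047 bp in CT26 distal and 2390, 1284 and 2200 bp in CT26 niche libraries. In 9 libraries it consisted of upstream peaks that ended between -231 and -168 bp relative to the start, with 4T1 distal replicate 1 showing pieces at -3413 to -3150, -2286 to -1776 and -909 to -181 bp. In 4T1 niche replicates 1 and 2 a single broad peak ran without a break from -3421 to 1787 bp and from -3450 to 766 bp, across the start and the promoter printed above. In 4T1 niche replicate 3 the upstream peaks ended at -231 bp and a separate peak lay inside the gene from 627 to 1803 bp, with a -log10 q of 2.43. The first 2 kb of the gene thus held 1788, 767 and 1177 bp under peaks in the 4T1 niche libraries and none in the other 9. This stretch was chosen after the values were seen. Over 17273 genes with a known strand, 0.318% had a peak there in all 4T1 niche and no 4T1 distal library, and 0.0984% in all 4T1 niche and no other library. The joined peaks had a lower deposited fold enrichment over background (2.54 and 2.74) than the nearest upstream peaks of 4T1 distal libraries (3.65 to 3.98), and a broad peak includes the gaps between the sites it joins.

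**Figure D3:**
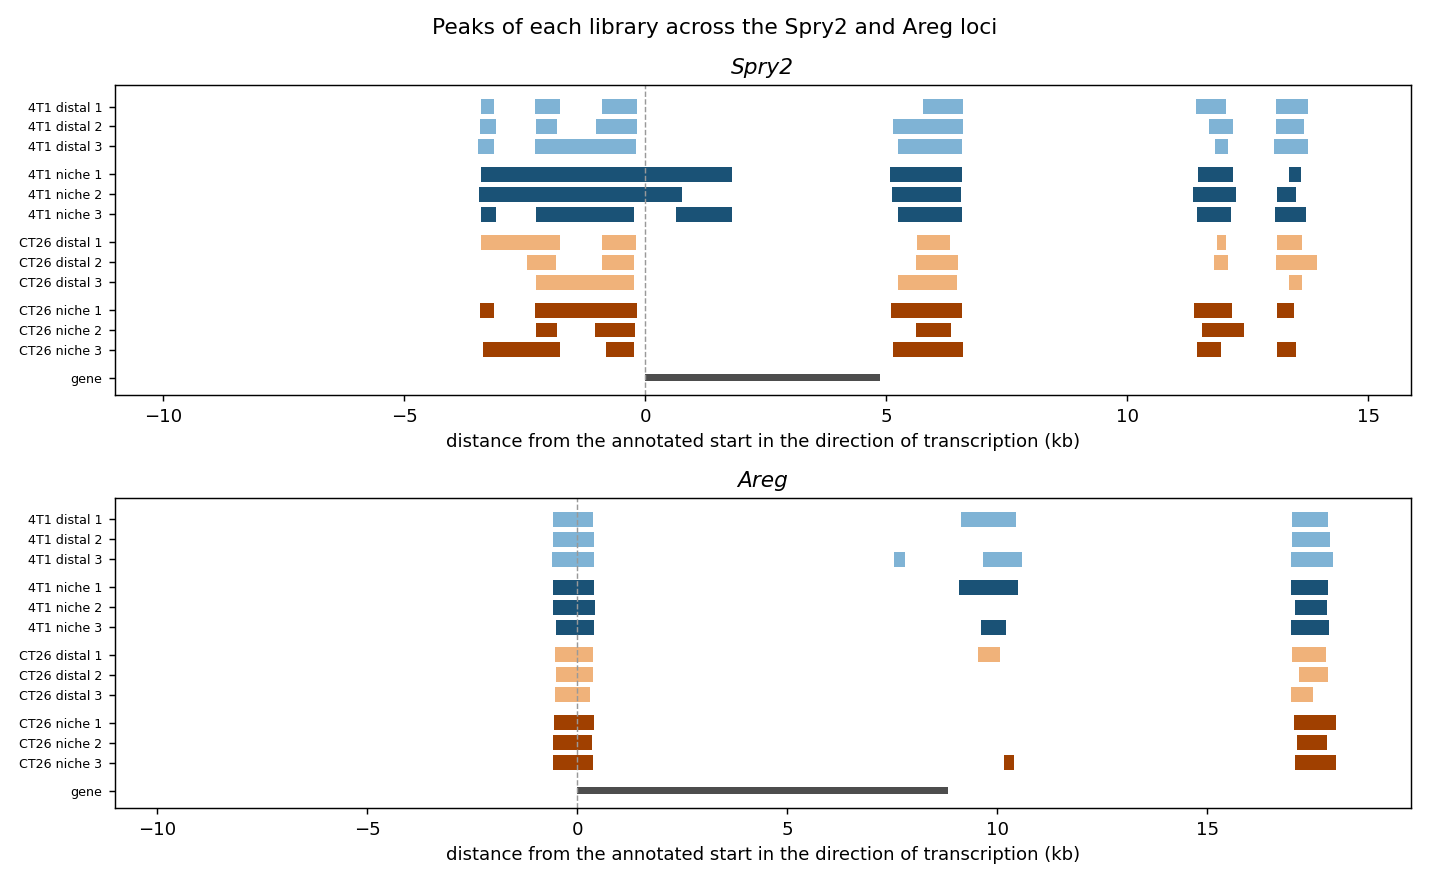
Peaks of each library at Spry2 and Areg (one row per library; horizontal axis, kb from the annotated start in the direction of transcription; the grey bar is the gene). At Spry2 only the 3 4T1 niche rows have peaks inside the gene, of 1788, 767 and 1177 bp within its first 2 kb, and at Areg the peak at the start has nearly the same width in all rows.

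Spry4, the other Sprouty gene of the list, had 2 regions in all libraries. Its length under peaks was 2.24, 2.30 and 2.27 kb in 4T1 distal, 2.37, 2.54 and 2.34 kb in 4T1 niche, 2.82, 2.09 and 1.94 kb in CT26 distal and 2.33, 2.16 and 2.15 kb in CT26 niche libraries. The 4T1 niche libraries were all slightly above the distal ones, while the scaled change was -0.09 ± 0.10 (log2, limma; adjusted p = 0.716). In CT26 it was -0.26 ± 0.10 (limma, adjusted p = 0.208). The region over the upper end of the gene, chr18:38600441-38602399, also overlaps Arhgap26.

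Niche and distal libraries were compared to ask whether AT2 cells beside the metastasis differ at these genes from those of distal lung. No member passed an adjusted p of 0.05 in 4T1, in CT26, over both models together or in the difference between the models (limma). By the same test 0.624% of the 16819 loci passed in 4T1, 0.672% in CT26, 2.38% over both models and 0.0595% in the difference. At an unadjusted p under 0.05 there were 2 of 10 members in 4T1 (Egfr and Spry2), 2 in CT26 (Erbb3 and Spry4), 2 over both models (Erbb3 and Spry4) and 3 in the difference (Egfr, Ereg and Spry2). The shares of all loci at that unadjusted threshold were 13.4% in 4T1, 19% in CT26, 24.8% over both models and 8.81% in the difference. Erbb3 had the smallest p over both models, with a change of -0.16 ± 0.05 and an adjusted p of 0.0796. The median log2 change of the 10 members was -0.10 in 4T1 and -0.08 in CT26, and that of all loci was -0.05 and -0.04. In unscaled length, 3 of 10 members (Egfr, Spry2 and Spry4) had all 4T1 niche libraries above all 4T1 distal ones, as did 27.5% of all loci, and 2 of 10 (Erbb2 and Ereg) did so in CT26, against 33.5% of loci. No member had all niche libraries below, against 0.916% of loci in 4T1 and 0.44% in CT26.

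Scaling bears on these values. Without it the median change of all loci moved from -0.05 to 0.12 in 4T1, from -0.04 to 0.18 in CT26 and from -0.04 to 0.15 over both models. Egfr and Spry2 then passed over both models (limma), with changes of 0.27 (adjusted p = 0.0438) and 0.43 (adjusted p = 0.0256), while 3981 of all loci passed in place of 401.

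**Figure D4:**
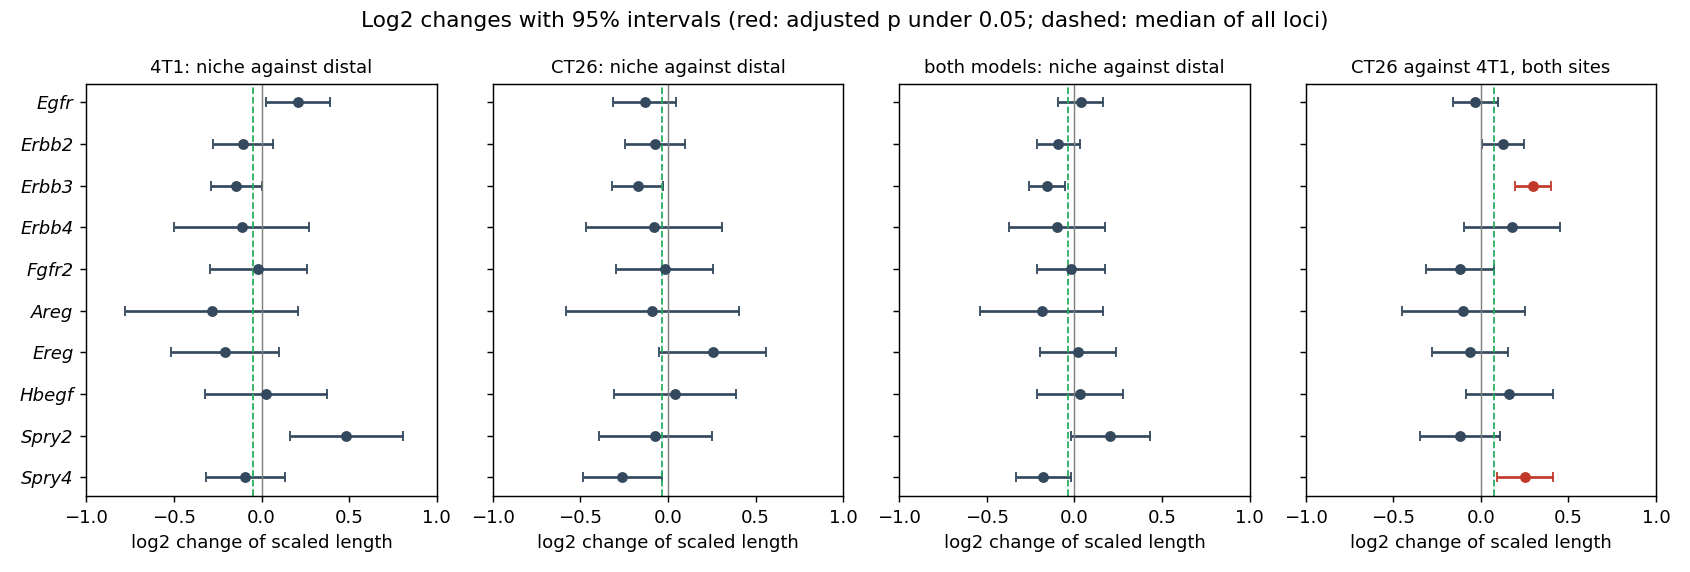
Log2 change of the scaled length under peaks for each member (points; bars are 95% intervals from limma) in 4 comparisons, with the median of all loci as a dashed line. Spry2 in 4T1 (0.48) and Egfr in 4T1 (0.21) lie above 0 without passing the adjusted test, and the red points, Erbb3 (0.30) and Spry4 (0.25) in CT26 against 4T1, are the 2 that passed.

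Counted by region, more member regions were held by all libraries than were exclusive to a site or model, as over all regions. Of the 73 regions, 39 (53.42%) were held by all 12 libraries, beside 42.1% of all regions, and 12 (16.44%) by 1 library, beside 15.29%. The Egfr region named above was the only one exclusive to the niche or to distal lung in a model. None was niche-only in 4T1 (2.59% of all regions), distal-only in 4T1 (0.143%) or distal-only in CT26 (0.136%), and none was exclusive to 4T1 (0.299%) or to CT26 (0.00239%). Of the 39 common regions, 5 were wider in all 4T1 niche than in all 4T1 distal libraries (12.82%, against 11.5% of all common regions), and they lay at Fgfr2 (2), Egfr, Spry2 and Spry4. In CT26, 7 were wider (17.95%, against 20.4%), 3 of them at Fgfr2 and 1 each at Egfr, Erbb2, Areg and Ereg, and none was narrower (1.18% of all common regions). The 34 regions not held by all libraries were found 11 to 20 times per library in 4T1 distal, 14 to 25 times in 4T1 niche, 7 to 10 times in CT26 distal and 10 to 14 times in CT26 niche.

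CT26 and 4T1 libraries were compared over both sites. Tumour line and list length cannot be told apart in this comparison, since the CT26 distal lists were shorter than all 4T1 lists. Erbb3 was higher in CT26 by 0.30 ± 0.05 (log2, limma; adjusted p = 0.00828) and Spry4 by 0.25 ± 0.07 (adjusted p = 0.029) on the scaled values, but without scaling the values were -0.04 and -0.06, and neither passed (adjusted p = 0.442 and 0.510). With equally long peak lists they were 0.12 and 0.09 and did not pass (limma, adjusted p = 0.151 and 0.501). For comparison, 24.1% of all loci passed on the scaled values, 3232 higher and 827 lower, while without scaling 21 were higher and 7786 lower and the median of all loci moved from 0.08 to -0.21. Unscaled, 5 members were lower in CT26 (limma, log2 values), Egfr at -0.39 (adjusted p = 0.00536), Erbb2 at -0.21 (0.0230), Fgfr2 at -0.48 (0.00281), Ereg at -0.28 (0.0372) and Spry2 at -0.46 (0.0101). No member had all CT26 below all 4T1 libraries in length, against 7.41% of loci. The call for Spry4 was lost when any one of 6 libraries was left out, namely 4T1 distal 1 or 2, 4T1 niche 1 or 3, or CT26 niche 2 or 3 (adjusted p from 0.0523 to 0.0626), and Erbb3 passed in each of the 12 omissions. In those omissions Erbb4 passed only without CT26 distal replicate 1 (limma, 0.29, adjusted p = 0.0485) and Fgfr2 only without CT26 distal replicate 2 (-0.21, adjusted p = 0.0182).

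A list of 56 further genes of both pathways was examined alongside, of which 52 had peaks in enough libraries to be tested. The FGF ligands of the lung mesenchyme, Fgf7 and Fgf10, and Nrg3 and Spry3 were not. None passed between niche and distal in 4T1, CT26, both models or the difference (limma), and 9, 11, 13 and 1 had an unadjusted p under 0.05, beside 13.4%, 19%, 24.8% and 8.81% of all loci. Ptpn11, which encodes the phosphatase SHP2, had 0.63 ± 0.19 in 4T1 (limma, adjusted p = 0.190). Spred2, a Sprouty-related inhibitor, had -0.34 ± 0.08 in 4T1 (limma, adjusted p = 0.113). The gene of the transcription factor Myc had 0.50 ± 0.19 in 4T1 (limma, adjusted p = 0.302).

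Between CT26 and 4T1, 16 of these 52 genes were higher and 4 lower on the scaled values, beside the 24.1% of all loci that passed. Of the EGF family ligands, Tgfa (-0.25 ± 0.07, limma, adjusted p = 0.0296) and Nrg4 (-0.73 ± 0.20, adjusted p = 0.0249) were lower in CT26 and Btc was higher (0.26 ± 0.08, adjusted p = 0.0417). Adam17, the main sheddase of EGF receptor ligands, was lower (-0.26 ± 0.08, limma, adjusted p = 0.0319), as was the feedback inhibitor Il17rd (-0.36 ± 0.11, adjusted p = 0.0368). Genes with higher values included Fgfrl1, Fgf1 and Fgf18 among the FGF receptors and ligands, the cascade genes Sos1, Shc1 and Hras, the inhibitors Spred3, Dusp4, Dusp5 and Dusp6, and the targets Etv1, Etv4, Egr1 and Fosl1, with log2 values from 0.19 to 0.33. Without scaling, 1 of the 16 genes kept a positive value and none of them passed as higher. Tgfa, Nrg4, Adam17 and Il17rd passed again as lower, but so did 7786 of all 16819 loci. With equally long lists, Btc was the only one of the 20 to pass, and all 16 kept a positive value. Of the 4 lower genes, 3 had a value there and 2 kept a negative one.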

How the data were processed

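Omni-ATAC-seq libraries of AT2 cells were analysed from the broad peaks that the authors deposited, 1 file per library, with positions on GRCm38. Per the submitters' processing notes, MACS2 and bedtools were used; which aligner and filters were used is not given in the sources. As deposited, the columns hold each peak's start and end, a fold enrichment over background (a ratio within the library), its -log10 p and -log10 q, and an integer score derived from the -log10 q, which was not used. No deposited -log10 q was below 1. The deposited files hold no read counts, so counting intervals and floors could not be given.

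On chromosome X and the 19 autosomes, the length under peaks was added up over each RefSeq protein-coding gene with 10 kb on each side. Of 21627 loci, 16819 had peaks in 3 or more libraries and entered the test, among them all 10 members. Each library was scaled so that its total covered length equalled the average over libraries. The log2 of the scaled length plus 500 bp was modelled by group in limma 3.58.1 (R 4.3.3), using its trended empirical Bayes variance with 8 residual degrees of freedom from the 4 groups. Log2 changes depend on the 500 bp. P-values were adjusted by Benjamini-Hochberg over all loci tested, with a threshold of 0.05. The fit was tested on simulated data, drawn as independent normal values with planted changes. These held no differences in list length, so they cannot show how scaling affects the calls. Regions are peaks of all libraries merged where they overlapped by at least 1 bp, and a percentile is the mean rank of a region's -log10 p within the library lists. The width of a region in a library is the length under that library's peaks in it. Tables were made with Python 3.11.15 and pandas 2.3.3.

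All members are named. Of the further pathway genes, those that passed were named, and of each group of them the 2 with the largest change could be given. Some listed genes are not reported here. The members, lists and tests were chosen with earlier results of these data known. The labels do not say whether niche and distal libraries were paired. Deviations of same-numbered libraries from their group means were weakly correlated (-0.044 to 0.089). In 4T1 these correlations (0.029 to 0.089) lay above those of differently numbered libraries (-0.06 to 0.024). In CT26 they (-0.044 to 0.018) lay within those of differently numbered libraries (-0.093 to 0.092). Replicate numbers were not used as pairs in the values above, and the replicate block is given as an alternative. The alternatives were no scaling, equally long lists, a -log10 q of at least 5, flanks of 2 and 50 kb, 100 and 2000 bp added, no filter, the replicate number within each model as a block, each model alone and each library left out.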

Additional observations from a re-analysis of the deposited data

How the results depend on the processing

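Counts of loci passing moved with the processing, and the cause was not tested. For the 4T1 niche comparison (105 loci) they were 569 without scaling, 46 with equally long lists, 44 with a -log10 q of at least 5, 171 with 50 kb flanks, 62 with 100 bp added, 31 with the replicate block and 26 to 107 with 1 library left out. For CT26 (113) they were 2030 without scaling, 224 with the q limit, 309 with 50 kb flanks, 8 with the replicate block, 9 with the CT26 libraries alone and 37 to 117 with 1 left out. Over both models (401) they were 3981, 98 (equal lists), 192 (q limit), 721 (50 kb), 81 (replicate block) and 90 to 358. For CT26 against 4T1 (4059) they were 7807, 94 (equal lists), 6381 (q limit) and 2516 to 4300. For the difference between models (10) they were 25, 81 (q limit), 17 (2 kb flanks), 1 (replicate block) and 0 to 18. The replicate block could not be fitted for CT26 against 4T1, since the block was the replicate number within each model. It made no member pass.

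Among members, CT26 against 4T1 changed sign without scaling at Erbb2 (-0.21), Erbb3 (-0.036), Erbb4 (-0.14), Hbegf (-0.17) and Spry4 (-0.056), and with the q limit at Erbb4 (-2.01, adjusted p = 0.00458 by limma). The q limit also ended the call of Spry4 (0.07, adjusted p = 0.381 by limma). With 50 kb flanks Hbegf passed there (0.21) and Erbb3 and Spry4 did not (0.12 and 0.15). Of the 8 members that did not pass there, 7 changed sign under at least 1 alternative. Of the 10 members, none of which passed in the other comparisons, 7 changed sign under at least 1 alternative in 4T1, 8 in CT26, 9 over both models and 6 in the difference. Of the 73 member regions, those niche-only in 4T1 numbered 3 when at least 50% of a region had to be covered and 0 to 3 with 1 library left out. Those niche-only in CT26 numbered 0 with the q limit and 1 to 2 with 1 left out, and those distal-only in CT26 numbered 1 with equal lists and 0 to 1 with 1 left out.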

Other observations

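The loci whose scaled length followed Erbb3 most closely over the 12 libraries, on other chromosomes, were Pacsin3 (Pearson r = 0.993), Smim40 (0.992) and Trim45 (0.991). For Spry4 they were Snx15 (0.981), Steap1 (0.967) and Gnai1 (0.966). These values are a description over 12 libraries that share their scaling factors, and both members varied little in unscaled length.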
